A study of Homo sapiens with 6 samples.

Results

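The replication-dependent histone genes were followed by PRO-seq in SH-SY5Y cells exposed to the neurotoxin MPP+. The set comprised the protein-coding genes of the count tables whose symbol belongs to the numbered H1, H2A, H2B, H3 or H4 gene series (H1-1 to H1-5, H2AC, H2BC, H3C and H4C), with older HIST symbols mapped to the current ones. These were 68 of 67051 listed gene identifiers: 5 linker histone H1 genes, 17 H2A, 18 H2B, 13 H3 and 15 H4 genes. PRO-seq sequences RNA labelled by engaged polymerases in a nuclear run-on, so a count reports ongoing transcription and not stored mRNA. SH-SY5Y is a human neuroblastoma line, and the study compared untreated cells with cells given 0.1 mM MPP+ for 0.5 h or for 24 h, each group with 2 libraries. MPP+ inhibits complex I of the respiratory chain after uptake into cells. No genetic change was made in any group, and whether the libraries of each group stem from different cultures is not stated in the labels; a p-value here therefore measures library-to-library spread only, and that spread can be technical.

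Replication-dependent histone genes supply the bulk of chromatin protein while DNA is copied. They are transcribed mainly in S phase, under NPAT at nuclear bodies that form on the histone gene clusters, and their transcripts mostly end in a conserved stem-loop in place of a poly(A) tail. That stem-loop is bound by SLBP, and the U7 small nuclear ribonucleoprotein directs the cleavage behind it. H2A pairs with H2B and H3 pairs with H4 in the nucleosome core, while H1 binds the linker DNA between cores.

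The genes lay in a few clusters on GRCh38. Chromosome 6 carried 54 members, 33 of them at chr6:25726132-26285638 and 21 at chr6:27125897-27893843. Chromosome 1 carried 13, of which 11 lay at chr1:149782689-149887916 and 2 at chr1:228456979-228460470. H4C16, on chromosome 12, stood alone.

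The stem-loop that gives these genes their particular 3′ end is shown for members of 4 families. It does not fully separate them from polyadenylated genes. The annotated model of H2BC5, for example, runs on past its stem-loop to chr6:26171349. Letters are DNA of the sense strand from GENCODE 29 transcripts on GRCh38, and capitals mark the stem-loop.
H2AC18: caaaaGGCTCTTTTCAGAGCCaccca
H2BC21: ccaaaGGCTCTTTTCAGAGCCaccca
H2BC5: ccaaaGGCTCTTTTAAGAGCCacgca
H3C6: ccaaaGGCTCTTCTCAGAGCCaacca
H4C14: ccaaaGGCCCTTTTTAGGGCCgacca
These stretches lie at chr1:149842218-149842243 on the minus strand for H2AC18, chr1:149886183-149886208 on the minus strand for H2BC21, chr6:26158582-26158607 on the plus strand for H2BC5, chr6:26225591-26225616 on the plus strand for H3C6 and chr1:149833027-149833052 on the plus strand for H4C14. Of the 32 members with at least 60 annotated bases after the last sense codon, 30 held the histone stem-loop, against 12 of 19102 other protein-coding genes (0.0628%). Only annotated transcript bases after the last sense codon were searched, so members with few such bases are not shown to lack it. The stem-loop was found in 31 members in all. The form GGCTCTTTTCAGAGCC was the most frequent, in 17 of these 31 members, and the form in H3C6 occurred in 1. It began 25 to 70 bases after the last sense codon, with a median of 39.

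The families also differ in their promoters. RefSeq promoter windows of GRCh38.p14, 250 bases before to 50 after each annotated start, were matched for 63 of the 68 members and searched on both strands for the TATA box TATAAA, the CCAAT box CCAAT and the octamer ATTTGCAT, which is the site of the transcription factor OCT1; none of these motifs contains another. The 100 bases before the start are printed for the H1, H2B and H3 genes with the most counts and for the members with some of the smallest p-values at 24 h, with motifs on either strand in capitals.
H1-4: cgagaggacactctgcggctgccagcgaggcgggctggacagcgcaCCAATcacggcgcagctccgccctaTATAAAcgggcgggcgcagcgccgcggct
H2AC14: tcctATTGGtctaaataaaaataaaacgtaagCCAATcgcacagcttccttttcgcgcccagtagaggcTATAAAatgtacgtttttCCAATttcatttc
H2BC5: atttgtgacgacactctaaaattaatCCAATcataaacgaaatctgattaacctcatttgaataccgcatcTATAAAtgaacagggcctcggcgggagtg
H2BC21: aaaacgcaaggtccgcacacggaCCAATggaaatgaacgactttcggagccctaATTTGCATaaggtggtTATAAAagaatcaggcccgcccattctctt
H3C1: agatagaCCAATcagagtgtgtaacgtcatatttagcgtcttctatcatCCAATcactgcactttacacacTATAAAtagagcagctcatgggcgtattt
H4C12: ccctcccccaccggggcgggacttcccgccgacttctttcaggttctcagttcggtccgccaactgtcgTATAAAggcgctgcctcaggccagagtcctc
Their positions are chr6:26156229-26156328 (plus strand) for H1-4, chr6:27814778-27814877 (minus) for H2AC14, chr6:26158022-26158121 (plus) for H2BC5, chr1:149886683-149886782 (minus) for H2BC21, chr6:26020351-26020450 (plus) for H3C1 and chr6:27831561-27831660 (minus) for H4C12. Matches were counted anywhere in a window and on either strand, so a match need not be the gene's own promoter element. The TATA box sequence occurred in 43 of 63 members (68.3%) and in 14% of the 27305 genes with a window. In H2BC6 it lay only at -189 from the start, and in H2BC4 only on the opposite strand, at -220. The CCAAT box occurred in 53 of 63 (84.1%) against 39.7% of all genes. Every H1, H2A, H2B and H3 window held it, but only 3 of 13 H4 windows did. The octamer occurred in 14 of 18 H2B and 11 of 16 H2A windows, in 1 of 11 H3 windows and in no H1 or H4 window, against 2.19% of all genes. Its orientation differed between H2A and H2B. Among the H2A genes with it, only H2AC17 had it on the gene's own strand, at -98 from the start. Among the H2B genes with it, only H2BC17 had it on the opposite strand, at -149. The H3 octamer lay in a second window of H3C4, at chr6:26199244-26199543, which is also the window of H2AC7. The other H3C4 window held no octamer. H2A and H2B genes share promoter windows where they lie head to head: 11 H2A-H2B pairs and 1 H2B-H3 pair had 5′ ends on opposite strands within 500 bases of each other, at gaps of 219 to 357 bases. The H2B-H3 pair, H2BC17 and H3C12, is not a separate arrangement. The H3C12 model overlaps H2AC17 on the same strand, and H2AC17 is itself paired with H2BC17 at 314 bases.

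Libraries held 5983066 to 11707612 assigned counts, and the 68 genes took 65261 to 162373 counts of a library. A count of 0 allows up to 3 counts, which is 0.256 to 0.501 CPM (counts per 1000000 assigned counts), and intervals cover counting error only, since PCR copies were not separated from molecules. Markers of the noradrenergic neuroblastoma state were present, with GATA3 at 1239 CPM and DBH at 241 CPM as means of the untreated libraries, while the summed level of 9 blood, epithelium and liver markers was 162 to 205 CPM, most of it on EPCAM (139 CPM in untreated cells). The liver marker ALB was under 1 CPM in every library (0.230 to 0.881 CPM).

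Transcription of the family as a whole was measured as its share of assigned counts. The untreated libraries gave 1.13% (95% Clopper-Pearson interval 1.12 to 1.14) and 1.05% (1.04 to 1.06). The 0.5 h libraries gave 1.39% (1.38 to 1.39) and 0.959% (0.952 to 0.965), and the 24 h libraries gave 1.54% (1.53 to 1.55) and 1.09% (1.08 to 1.10). Replicate 1 was above replicate 2 in each group, and the gap was far wider in both treated groups than in the untreated one. The second 0.5 h library was the lowest of all 6, and the second 24 h library lay between the untreated pair, so neither treated group separated from the untreated libraries. Within a replicate number, the 24 h library was above the untreated one for both numbers, while the 0.5 h library was above it for the first and below it for the second.

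**Figure D1:**
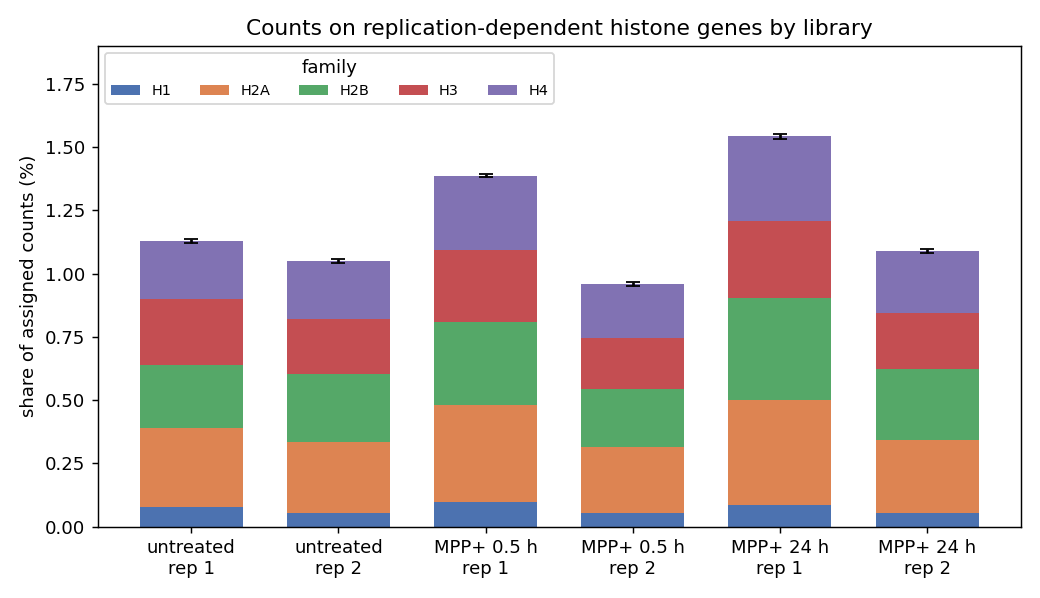
Share of assigned counts (%, y axis) on the 68 replication-dependent histone genes in each of the 6 libraries (x axis), stacked by histone family, with black bars for the 95% Clopper-Pearson interval of the total. Replicate 1 of the 0.5 h and 24 h groups stands at 1.39% and 1.54%, and the other 4 libraries lie between 0.959% and 1.13%.

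The group means were 1.09% ± 0.0570 in untreated cells, 1.17% ± 0.303 at 0.5 h and 1.32% ± 0.319 at 24 h (SD, n = 2 libraries each). The mean at 24 h was 1.21 times that of untreated cells. Two-sided exact permutation tests of the means gave p = 1 for 0.5 h against untreated, p = 0.667 for 24 h against untreated and p = 0.667 for 24 h against 0.5 h, where the smallest p this design allows is 0.33. Without the first 24 h library the difference between 24 h and untreated cells was 0.00111 percentage points in place of 0.227, and without the first 0.5 h library the difference at 0.5 h was -0.131 in place of 0.0832.

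The make-up of the histone counts varied less than their total. H2A genes held 26.5% to 27.8% of the histone counts of a library, H2B genes 21.9% to 26.3%, H3 genes 19.8% to 23.2% and H4 genes 20.3% to 22.5%. The H1 genes held 5.01% to 7.0%. The first untreated library had the lowest H2B share and the highest H3 share of the 6.

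Individual genes spanned a wide range of transcription. Compared per length, among the 36 tested members with a single annotated exon under 1000 bases, untreated means ran from 4.39 CPM per kilobase for H2AC1 to 887 CPM per kilobase for H3C1. H3C1 (411 bases, chr6:26020490-26020900, plus strand) was at 1006 and 767 CPM per kilobase in the untreated libraries, and H2AC20 followed at 894 and 761, a pair that overlapped. H1-4 (754 bases, chr6:26156354-26157107, plus strand), the most transcribed linker histone gene in total CPM, was at 632 and 416 CPM per kilobase. The span assumes that reads were counted over the annotated exon, which the sources used here do not give.

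H2AC7, H2AC15 and H3C4 had 0 counts in all 6 libraries. H2AC7 and H3C4 lie inside an exon of another gene model on the same strand, AL031777.3, which took 416 to 1066 counts per library. H2AC15 lies inside an exon of H2BC15 on the other strand. In all, 14 members overlap an exon of another gene on either strand. Of these, H2AC16 and H2AC17 overlap H2BC15 and H3C12 on the same strand, and took 591 to 1816 and 1389 to 5470 counts per library. The part of overlap in the counts of 0 was not tested. H1-1 and H2BC1 had too few counts to be tested. The other 63 members passed the filter on low counts and were tested with 23133 genes in all.

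Some values are shared between genes. The coding sequences of H2AC18 and H2AC19, of H3C14 and H3C15, of H4C11 and H4C12 and of H4C14 and H4C15 are identical within each pair, and each pair divided its counts nearly evenly in every library: the first gene took 49.5% to 51.2%, 49.1% to 50.4%, 48.0% to 50.02% and 49.3% to 51.4% of the pair's counts. The 95% exact binomial interval included 50% in 5 of 6 libraries for the H2A pair, in 6 for the H3 pair, in 6 for H4C11 and H4C12 and in 5 for H4C14 and H4C15. Reads within identical stretches cannot be assigned to either gene from their sequence, and how such reads were counted is not known here, so the values of these genes are uncertain and those of a pair are not taken as independent. The gene models of H3C14 and H4C14, and those of H3C15 and H4C15, also overlap on opposite strands, and since the strand setting of the counting is not known here, their reads cannot be told apart with certainty. Among members of equal coding length, median identity of the coding sequences was 85.6% for H2A, 89.8% for H2B, 85.8% for H3 and 83.8% for H4.

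After 0.5 h of MPP+, no histone gene passed the test. Fold changes below are on the log2 scale from edgeR's quasi-likelihood fit, with p adjusted by Benjamini-Hochberg over all genes tested and a threshold of 0.05. With edgeR, 0 of 63 members were called, beside 0.0735% of all genes tested, and 0 had an unadjusted p under the threshold, beside 2.46% of all genes. DESeq2 also called 0 members, among 20 called genes, and gave 0 with an unadjusted p under the threshold, beside 0.601% of all genes. The median log2 fold change of the members was 0.17, with 53 of 63 above 0 (52.1% of all genes), against a median of 0.0082 over all genes tested. Both 0.5 h libraries lay above both untreated ones for 8 members (12.9% of all genes), and below them for 0 (14.4%). Without the first 0.5 h library the members' median was -0.17 with 12 of 63 above 0 (49.7% of all genes), so the direction at this time rests on that library.

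H4C3, an H4 gene at chr6:26103876-26104310, had the smallest p at 0.5 h. Its TMM-scaled level was 72.2 and 65.7 CPM in the untreated libraries and 108 and 75.0 CPM at 0.5 h. The groups did not overlap, and the log2 fold change was 0.41 ± 0.19 (SE; adjusted p = 0.9997). H2AC14, which encodes an H2A protein, was at 78.2 and 82.0 CPM in untreated cells and at 123 and 87.0 CPM at 0.5 h, with a log2 fold change of 0.39 ± 0.20 (adjusted p = 0.9997). H3C3 went from 105 and 98.6 CPM to 144 and 112 CPM. In each of these genes the first treated library was the higher, and the second was only slightly above the untreated pair.

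After 24 h most members had fold changes above 0, again with none past the threshold. With edgeR, 0 of 63 were called, beside 0.0692% of all genes tested. An unadjusted p under the threshold was found for 10 of 63, beside 8.10% of all genes. DESeq2 called 0 members, among 31 called genes. It gave 14 members with an unadjusted p under the threshold, beside 3.26% of all genes. The count of 0 holds for fits by group that filter low counts and have no term for the replicate number. With such a term edgeR called 18 of 63 members, 17 higher and 1 lower, among 685 of 23133 genes. What the number marks is not stated in the labels. In the fit without this term the median log2 fold change was 0.29, with 57 of 63 above 0 (50.4% of all genes), against a median of 0.0023 over all genes. Both 24 h libraries lay above both untreated ones for 18 of 63 members, beside 18.8% of all genes, and below them for 0, beside 18.5%.

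The count of members above 0 rested on the first 24 h library. Without it the median was -0.022 and 29 of 63 members were above 0, beside 50.5% of all genes. Without the second 24 h library the median was 0.54 with 59 above 0, beside 48.7% of all genes. The first 24 h library was the highest of all 6 for 44 of 63 members, and the second 0.5 h library was the lowest for 35. The same shares over all genes were not computed. With no filter on low counts, where 65 members entered the fit, edgeR called 14 members at 24 h, 13 higher and 1 lower. It called 245 genes in all, 130 higher and 115 lower. That fit kept every gene with at least 1 count, and its total of genes and the share called are not given here. In that fit 39 of the 65 members had an unadjusted p under the threshold, beside 7.60% of its genes.

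**Figure D2:**
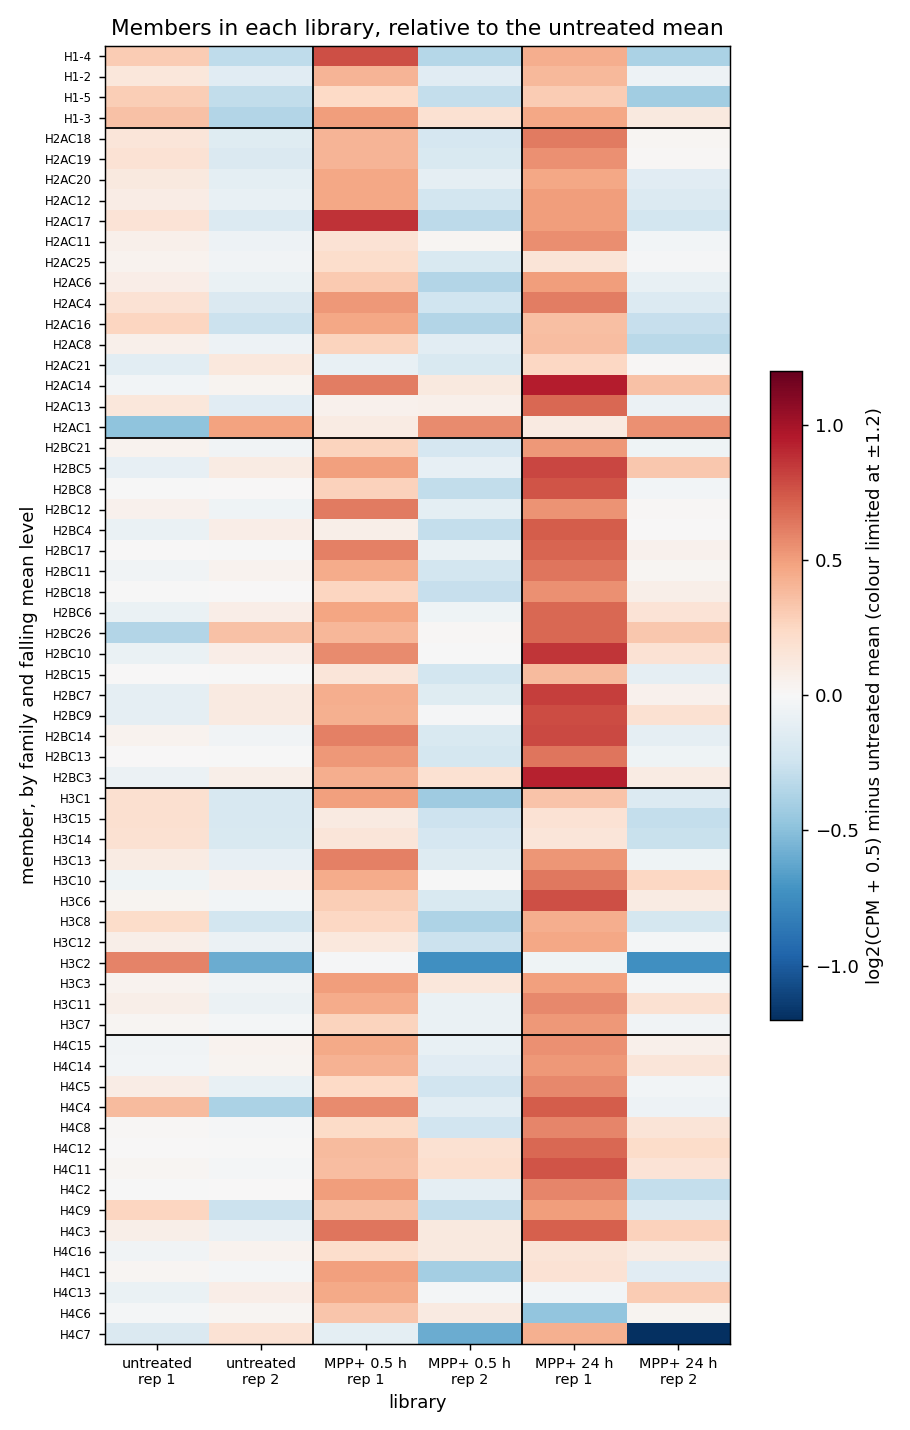
Level of each of the 63 tested members (y axis, by family and falling mean level) in each library (x axis), as the log2 difference of its TMM-scaled CPM plus 0.5 from the untreated mean; red is higher and blue lower, and 1 of 378 values lies beyond the colour limit. The columns of the first 0.5 h and first 24 h library are mostly red, while the second library of each treated group is near the untreated level.

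The H2B genes, whose products pair with H2A, had the highest family median at 24 h. All 17 tested H2B genes were above 0, with a median log2 fold change of 0.42, and 7 had both 24 h libraries above both untreated ones, beside 18.8% of all genes. Without the first 24 h library, 11 of these 17 were above 0, beside 50.5% of all genes. H2BC5 (chr6:26158146-26171349, plus strand), whose promoter is printed above, was at 229 and 262 CPM in untreated cells, 344 and 228 CPM at 0.5 h and 428 and 306 CPM at 24 h. Both 24 h libraries lay above both untreated ones, by 0.58 ± 0.21 on the log2 scale (SE; adjusted p = 0.589). H2BC21, the H2B gene with the most counts, was at 445 and 419 CPM in untreated cells and at 622 and 416 CPM at 24 h, so that the groups overlapped (log2 fold change 0.27 ± 0.20, adjusted p = 0.790). H2BC8 also overlapped, at 231 and 231 CPM in untreated cells and 390 and 226 CPM at 24 h.

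Among the H2A genes, all 15 tested were above 0 at 24 h, with a median of 0.24, but only 1 had groups that did not overlap, beside 18.8% of all genes with both 24 h libraries above. That gene was H2AC14 (chr6:27814354-27814740, minus strand), which had the smallest p of all members: 155 and 102 CPM at 24 h against 78.2 and 82.0 CPM in untreated cells, which is 0.69 ± 0.21 on the log2 scale (SE; adjusted p = 0.540). The identical pair H2AC18 and H2AC19, the most counted H2A genes, overlapped between groups. H2AC18 was at 452 and 368 CPM in untreated cells, 540 and 354 CPM at 0.5 h and 627 and 415 CPM at 24 h. H2AC20, head to head with H2BC21, was at 349 and 297 CPM in untreated cells and 443 and 293 CPM at 24 h.

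The H4 genes had a median of 0.30 at 24 h, with 13 of 15 above 0 and 7 with both 24 h libraries above both untreated ones, beside 18.8% of all genes. H4C12 (chr6:27831216-27831527, minus strand), which shares its coding sequence with H4C11, was at 108 and 107 CPM in untreated cells, 140 and 122 CPM at 0.5 h and 174 and 125 CPM at 24 h. The log2 fold change at 24 h was 0.48 ± 0.15 (SE; adjusted p = 0.555), and every treated library lay above both untreated ones. H4C3 was at 113 and 83.5 CPM at 24 h, again above both untreated libraries (0.52 ± 0.19, adjusted p = 0.594). H4C14 and H4C15, the most counted members, were at 562 and 589 CPM and at 555 and 591 CPM in untreated cells, and at 825 and 635 CPM and 839 and 599 CPM at 24 h. H4C6, a gene of few counts (22 to 56 per library), lay lower at 24 h in the first library only, at 2.61 and 3.90 CPM against 3.75 and 3.87 CPM in untreated cells.

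The H3 genes were the most mixed of the core families, with a median of 0.25 and 9 of 12 above 0. H3C6 was at 185 and 178 CPM in untreated cells and 310 and 194 CPM at 24 h, or 0.48 ± 0.22 higher on the log2 scale (SE; adjusted p = 0.621). The identical genes H3C14 and H3C15 were at 371 and 287 CPM and at 377 and 290 CPM in untreated cells and at 359 and 270 CPM and 372 and 271 CPM at 24 h, so these, on chromosome 1, lay near the untreated values in the first 24 h library, where most other members were high. H3C1 went from 413 and 315 CPM to 459 and 321 CPM. H3C2, which was singled out after its values were seen, had the lowest fold change of all members, -0.46 ± 0.37 (SE; adjusted p = 0.803). It was at 256 and 112 CPM in untreated cells and at 164 and 102 CPM at 24 h, and the first untreated library stood apart from the other 5.

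The linker histone genes had the lowest family median at 24 h, 0.12, and 3 of 4 tested genes above 0. H1-4 was at 477 and 314 CPM in untreated cells, 662 and 305 CPM at 0.5 h and 523 and 298 CPM at 24 h. Its libraries of 1 group differed more than the groups did. H1-2 was at 157 and 130 CPM in untreated cells and 187 and 137 CPM at 24 h, and H1-5 at 146 and 95.9 CPM and at 146 and 88.6 CPM.

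**Figure D3:**
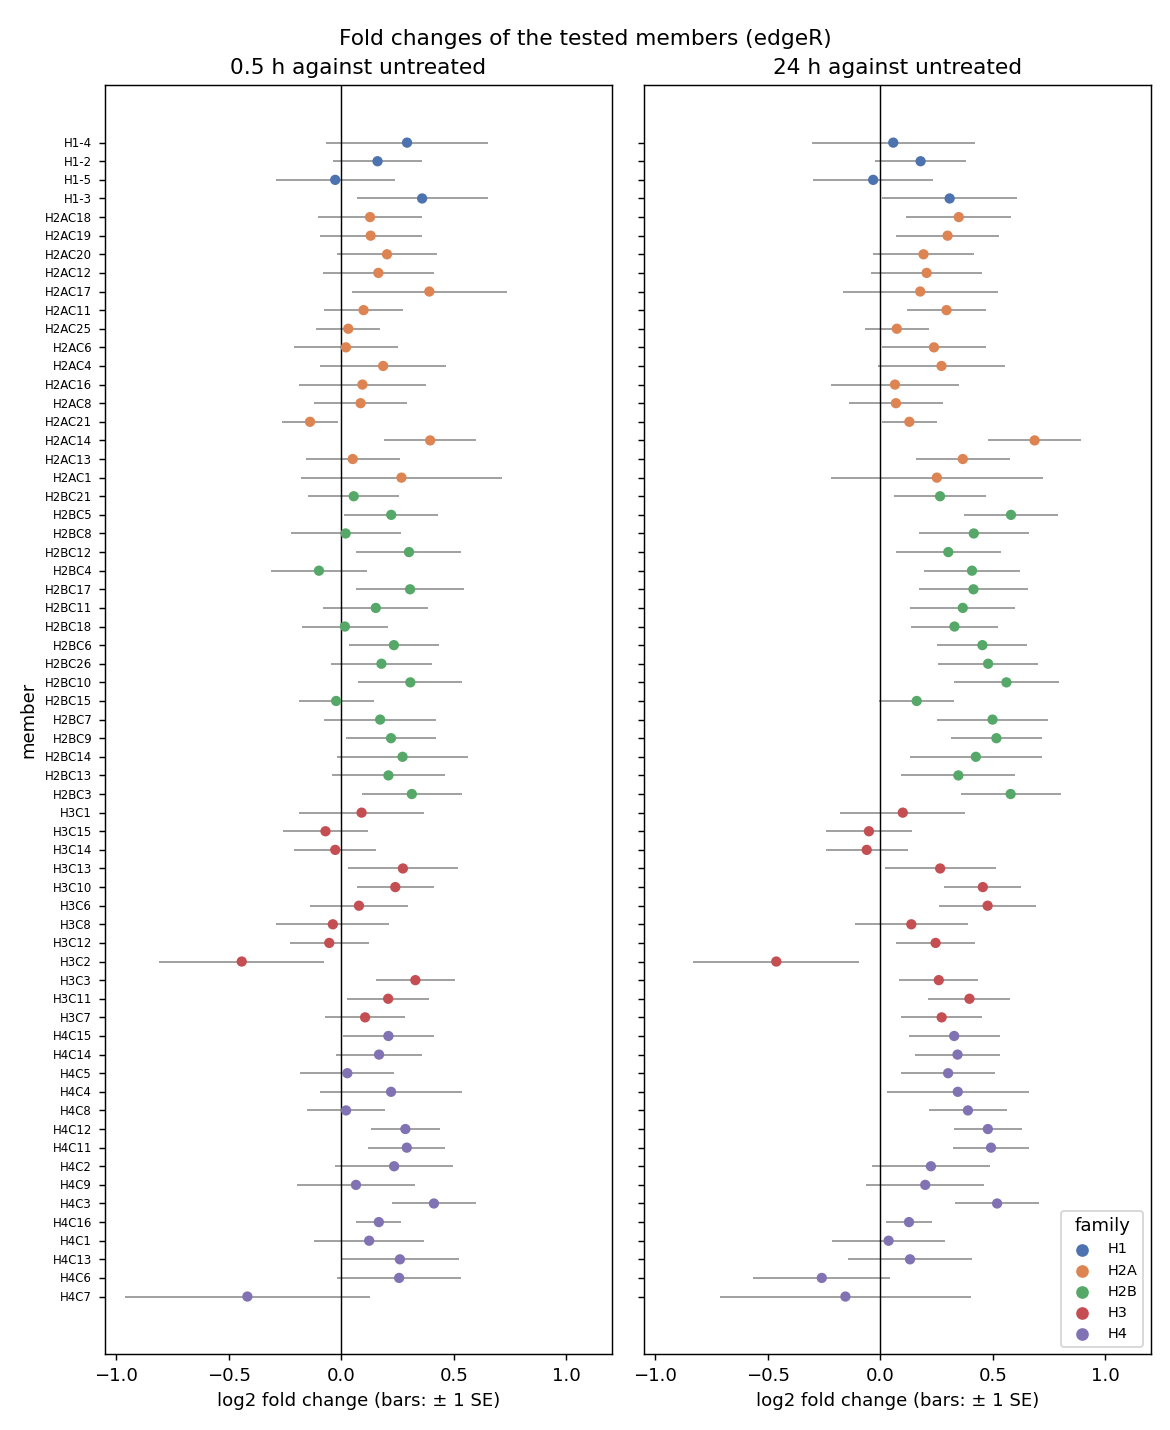
Log2 fold change (x axis) of each of the 63 tested members (y axis) at 0.5 h and at 24 h against untreated cells, from edgeR, coloured by family, with bars of ± 1 SE. At 24 h 57 of 63 points lie above 0, all 17 H2B genes among them, and H3C2 is the lowest at -0.46.

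Medians were close to each other across the genomic clusters. At 24 h the median log2 fold change was 0.27 for the 29 tested genes of the first chromosome 6 group, 0.32 for the 20 of the second and 0.27 for the 11 at chr1:149782689-149887916. In the 10 head-to-head pairs with both genes tested, both genes were above 0 at 24 h in 10. For the H2A-H2B pairs this follows from every tested H2A and H2B gene being above 0, so it says nothing about pairing. H2BC17 stands in a pair with H2AC17 and in another with H3C12. The fold changes within a pair could be unequal, as in 2 pairs chosen after their values were seen: H2BC8 and its partner H2AC8 gave 0.42 and 0.070, and H2BC14 and H2AC14 gave 0.42 and 0.69. The comparisons with untreated cells share the untreated libraries and are not independent.

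Between 0.5 h and 24 h, 0 of 63 members were called by edgeR, beside 0% of all genes, and 0 by DESeq2. A single member had an unadjusted p under the threshold with edgeR, beside 6.42% of all genes. With DESeq2 a single one did, beside 2.17% of all genes. With a term for the replicate number edgeR called 3 members, among 412 of 23133 genes. Without that term the median log2 fold change was 0.17 with 46 of 63 above 0 (50.5% of all genes). The groups did not overlap upwards for 1 member, H2AC21 (105 and 97.8 CPM at 0.5 h, 132 and 112 CPM at 24 h), beside 19.4% of all genes, and downwards for 1, H4C6, beside 19.0%. H2BC4 had the smallest p, at 184 and 143 CPM at 0.5 h and 289 and 175 CPM at 24 h (0.51 ± 0.21, adjusted p = 0.768). H4C8 was at 142 and 104 CPM and then 182 and 135 CPM. The median turned to -0.088 without the second 0.5 h library and to -0.14 without the first 24 h library.

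The spread between the libraries of a treated group was itself large for these genes. The median log2 difference of replicate 1 over replicate 2 was 0.076 in untreated cells, with 41 of 63 members higher in replicate 1. It was 0.53 at 0.5 h, with 61 higher, and 0.59 at 24 h, with 60 higher. Over all genes tested the same medians were -0.0028, 0.0021 and 0.0011, which TMM scaling holds near 0. Replicate 1 was the higher for 49.6%, 50.3% and 50.2% of all genes. A difference at least as large as the members' median, in either direction, was found for 80.5%, 11.7% and 10.3% of all genes. Most histone genes thus differed in the same direction between the libraries of each treated group, by more than the median difference between groups.

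**Figure D4:**
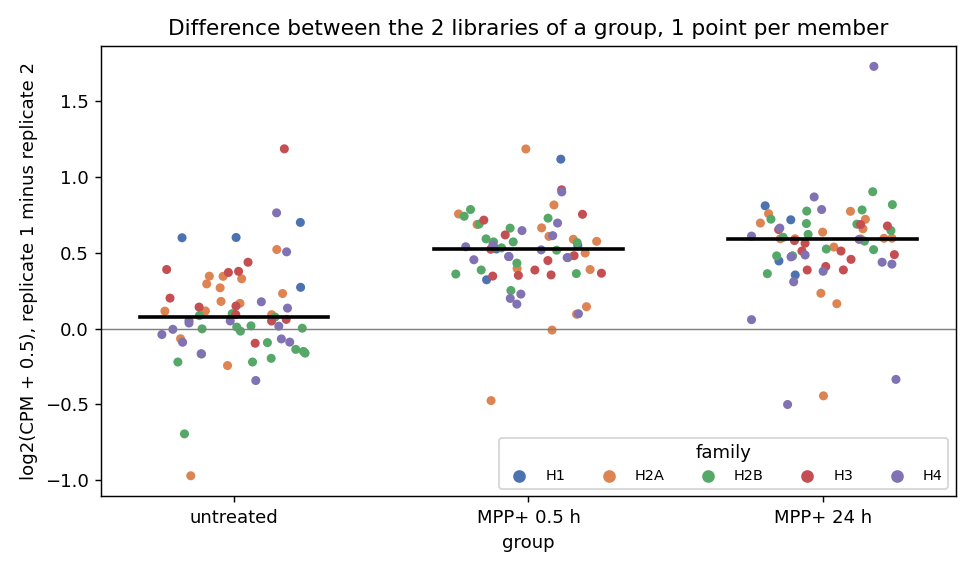
Log2 difference of TMM-scaled CPM plus 0.5 between replicate 1 and replicate 2 (y axis) in each group (x axis), 1 point per tested member coloured by family, with a black line at the median. The points centre near 0 in untreated cells and near 0.53 and 0.59 in the 0.5 h and 24 h groups.

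Cell cycle genes and other gene sets linked to histone supply were read beside these values. Bulk libraries cannot tell a change in the number of S phase cells from a change in transcription per cell. The 50 S phase and DNA replication genes summed to 4869 and 4070 CPM in untreated cells, 4721 and 4171 CPM at 0.5 h and 4068 and 3661 CPM at 24 h, so replicate 1 was the higher in each group here too, but the 24 h libraries were the lowest of their replicate number. At 24 h their median log2 fold change was -0.18, with 5 of 48 tested genes above 0, none called, and 19 with both 24 h libraries below both untreated ones, beside 18.5% of all genes. The helicase subunit MCM5 gave -0.66 ± 0.15 (adjusted p = 0.383), the polymerase gene POLE -0.55 ± 0.13 (adjusted p = 0.407) and the uracil glycosylase gene UNG -0.52 ± 0.14 (adjusted p = 0.508). The 28 tested G2 and M phase genes had a median of 0.023, with 16 above 0. The part of the cell cycle in the histone values was not tested.

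The histone variant genes expressed outside S phase, whose transcripts are mostly polyadenylated, were mostly below 0 at 24 h; whether they differ from the replication-dependent genes was not tested. Of 11 tested, 3 were above 0 at 24 h, with a median of -0.13, none called and 5 with both 24 h libraries below both untreated ones, beside 18.5% of all genes. H2AX, the DNA damage histone, whose transcript can also end in the stem-loop, was named after its values were seen; it was at 109 and 117 CPM in untreated cells and at 157 and 114 CPM at 24 h. H1-10, a linker histone variant, averaged 29.8 CPM in untreated cells and 17.8 CPM at 24 h (-0.73 ± 0.19, adjusted p = 0.478). H3-3A, which encodes the replacement histone H3.3, averaged 179 and 129 CPM (-0.47 ± 0.17, adjusted p = 0.594), and MACROH2A2 161 and 134 CPM (-0.26 ± 0.097, adjusted p = 0.594).

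Genes that serve histone transcription, 3′ processing and deposition also gave no call. Among 28 tested factors of transcription and 3′ processing the median at 24 h was -0.087, with 8 above 0; NELFB, a subunit of the negative elongation factor, gave -0.40 ± 0.15 (adjusted p = 0.595) and the cleavage factor scaffold SYMPK -0.26 ± 0.10 (adjusted p = 0.595). At 0.5 h the median of this list was 0.036, with 18 of 28 above 0. Among 23 tested histone chaperones the median at 24 h was -0.13, with 4 above 0. The lists share genes and are not independent. CHAF1A and CHAF1B are also in the S phase list. SLBP, CCNE1 and CCNE2 are in both the S phase list and the list of transcription and 3′ processing factors. CHAF1A, the large subunit of the replication-coupled chaperone CAF-1, averaged 140 CPM in untreated cells and 102 CPM at 24 h (-0.46 ± 0.13, adjusted p = 0.528), and its partner CHAF1B 31.9 and 24.1 CPM (-0.40 ± 0.16, adjusted p = 0.602). The noradrenergic markers had a median of -0.091 at 24 h, with 4 of 14 above 0, and the mesenchymal markers one of 0.024, with 7 of 12 above 0. Summed levels of both marker lists were higher in replicate 1 than in replicate 2 of each group, at 4961 to 5321 against 3997 to 4413 CPM and at 1710 to 1995 against 1374 to 1485 CPM. The part of these differences in the histone values was not tested.

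The authors' deposited tables of differential genes list 17 genes for 0.5 h and 24 for 24 h, and 0 of them are replication-dependent histone genes.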

How the data were processed

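PRO-seq counts of 6 libraries were used. Per the submitters' processing notes, cutadapt 1.16.5, Bowtie2 2.4.2, SAMtools 1.13, featureCounts 2.0.1, DESeq2 2.11.40.6 and the build hg38 were used; for the counting, strand, feature type, multimapped reads and gene models are settings not given in the sources. The authors deposited raw counts per gene without normalization, and tables with an adjusted p-value per differential gene. The members, lists and tests were chosen with earlier results of these data known.

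Symbols came from a gene name table (66 members) and GENCODE 29 (2). Counts were filtered with filterByExpr, scaled by TMM and fitted by group in edgeR 4.0.16 (R 4.3.3, 3 residual degrees of freedom), with two-sided quasi-likelihood tests adjusted by Benjamini-Hochberg. Levels are TMM-scaled CPM. DESeq2 1.42.0, other scalings and filters, a replicate term and leaving out each library were alternatives. The pipeline was tested on simulated data. Libraries of a group differed beyond counting error (chi-square per degree of freedom 3.85 to 8.24).

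Named members are the 3 with the highest mean level in each family and the 5 with the smallest p in each comparison; from each list, up to 4 genes with the smallest p. Not all are described, and 1 of them is not reported here.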

Additional observations from a re-analysis of the deposited data

How the results depend on the processing

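The labels give the groups the same replicate numbers but do not say what the numbers mark, and each comparison has only 2 pairs. With a replicate block, edgeR called 0 of 63 members at 0.5 h, 18 at 24 h (17 higher and 1 lower) and 3 for 24 h against 0.5 h (H2BC4, H3C6 and H4C8). Of the 23133 genes tested it called 57, 685 and 412, in place of 17, 16 and 0. An unadjusted p under 0.05 was found for 17, 41 and 26 members, beside 7.67%, 16.8% and 15.5% of all genes. The replicate differences of all genes correlated between groups at 0.33, 0.29 and 0.31, and those of the members at 0.49, 0.25 and 0.42. With no filter on low counts, 14 members were called at 24 h and 1 for 24 h against 0.5 h (H2BC4), among 66, 245 and 73 called genes over the 3 comparisons. The total of genes in that fit is not given here. An unadjusted p under 0.05 was found for 20, 39 and 17 of 65 members, beside 3.12%, 7.60% and 6.37% of the genes in that fit. The cause was not tested. DESeq2 called 31 genes at 24 h. No other scaling, filter or selection of groups gave a called member or turned a median.

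Leaving out 1 library at a time gave 0 called members throughout. The members' median ranged from -0.17 to 0.40 at 0.5 h, from -0.022 to 0.54 at 24 h and from -0.14 to 0.46 for 24 h against 0.5 h; the 4 values below 0 were -0.17 (without the first 0.5 h library), -0.022 and -0.14 (without the first 24 h library) and -0.088 (without the second 0.5 h library). The difference in share ranged from -0.131 to 0.297, from 0.00111 to 0.453 and from -0.0821 to 0.369 percentage points, and was -0.0704 for 24 h against 0.5 h without the second 0.5 h library. Called genes then ranged from 9 to 19 at 0.5 h and from 8 to 16 at 24 h. With 2 libraries per group, no single member's change passed the threshold in the filtered fit by group without the block, in which the replicate spread entered the error.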
